A study of Mus musculus with 9 samples.

Results

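The 22 genes described here had mRNA in mouse myoblasts at day 0 and far lower levels at day 5 of differentiation. They are protein-coding nuclear genes with at least 5 CPM (reads of a gene scaled to a common library total) at day 0, and at day 5 at most 10% of that level, in each of 3 genotypes. They come from 47728 listed genes, of which 21684 were protein-coding and nuclear and 9680 reached 5 CPM at day 0 in all genotypes. A further 6 genes that meet these limits, Hmga2, Id3, Ngfr, Itgb7, Cxcl5 and Fosl1, were left out by name. The members were chosen by the levels at day 0 and day 5, so their day 5 decline is given as a description, without a test.

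The cells were C2C12, an established line of mouse myoblasts that stops dividing and fuses into myotubes in differentiation medium. The 9 libraries are the Fkbp5 knockdown, the Fkbp4 knockdown and the control, each at days 0, 3 and 5, with 1 library per genotype and day. Fkbp5 and Fkbp4 encode immunophilins that work with the chaperone Hsp90, and the series asks how Fkbp5 bears on myoblast differentiation. Every library is of polyA RNA. The labels give neither the knockdown method nor how many clones or cultures stand behind a library, and they call the control Neg. Differentiation began at day 0 with insulin, transferrin and selenium in place of fetal serum, and the labels also name a medium with HS at later changes, so which medium each library was in is not clear. With no repeat of any genotype and day, the tests take the 3 days as the repeats of a genotype, and the p-values measure only the spread between these single libraries.

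Library totals ranged from 3932372 to 5568486 reads, and 3 reads, taken as the limit for a count of 0, corresponded to 0.539 to 0.763 CPM. Each targeted mRNA was lower in its own knockdown: Fkbp5 by a log2 fold change of -1.72 (SE 0.24, edgeR adjusted p = 0.00842) and Fkbp4 by -2.28 (SE 0.12, edgeR adjusted p = 1.97e-05), both against control. The muscle genes Myog, Myh3 and Ckm were higher on days 3 and 5 than on day 0 in every genotype, and Myod1 was at 128% to 153% of day 0 by day 5. In the Fkbp5 knockdown Ckm was below control (-1.10, SE 0.14, edgeR adjusted p = 0.00458). All 7 myoblast markers were detected, with summed levels of 2323 to 2475 CPM at day 0, 6190 to 7618 CPM at day 3 and 7503 to 8124 CPM at day 5. Des, Itga7 and Chrna1 together made up most of this sum in every library. Of the other markers in it, Myod1 and Myf5 did not exceed 130 CPM in any library, and Pax7 did not exceed 2.47 CPM. Of 7 adipocyte markers, Adipoq, Cidec and Plin1 had no read in any library; the sum was 46.2 to 87.9 CPM at day 0, 51.7 to 165 CPM at day 3 and 66.5 to 214 CPM at day 5, most of it Lpl, which was highest in the Fkbp5 knockdown day 5 library at 202 CPM. Summed endothelial and immune markers stayed at or under 4.68 CPM, and osteoblast and chondrocyte markers at or under 2.9 CPM. The 6 fibroblast markers summed to 1351 to 2165 CPM at day 0, 3656 to 5396 CPM at day 3 and 4209 to 5820 CPM at day 5. Most of this was Col3a1 in every library. Lum had at most 1 read at day 0, and the only read of Thy1 was in the Fkbp4 knockdown day 0 library. The part of other cells in the results was not tested. Mitochondrial transcripts took 10.1% of reads in the Fkbp5 knockdown day 5 library and 1.78% to 5.01% in the others.

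A myoblast in growth medium carries out a programme that differs from that of a muscle fibre: it makes secreted factors, adhesion and signalling proteins that act on itself and its neighbours. When serum factors are withdrawn, the myogenic factors Myod1 and Myog take the cell out of the cycle and turn on the contractile genes. Some growth-phase factors, the proliferins among them, are known to hold back differentiation in culture. In bulk RNA, fewer cells with a transcript and less of it per cell cannot be told apart.

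Promoters of 5 members are shown, because the members include CpG-poor and CpG-rich starts, matches to the AP-1 motif and a pair of near-identical copies. RefSeq promoter entries (GRCm38.p6, 250 bases before to 50 after the start, read 5′ to 3′ on the gene's strand) were matched for 13 of the 22 members, that is all but Csn3, Nefm, Nefl, Fabp5, Igsf5, Eps8, Car8, Prl2c2 and Usp43. Spp1, Serpinb2 and Ptprn had 2 starts among these entries, and the sequences and matches given are those of 1 start per gene. Capitals mark TGANTCA, the AP-1 motif with any middle letter, in Prl2c3 (chr13:12800030-12800329, minus strand) and Serpinb2 (chr1:107511173-107511472, plus strand), and also the TATA box TATAAA in Serpinb2. Prl2c5 (chr13:13182466-13182765, plus strand), the near-identical copy of Prl2c3, has no such match and is in lower case throughout. In Spp1 (chr5:104434861-104435160, plus strand) and Grem1 (chr2:113758599-113758898, minus strand) capitals mark CG dinucleotides.
Prl2c3: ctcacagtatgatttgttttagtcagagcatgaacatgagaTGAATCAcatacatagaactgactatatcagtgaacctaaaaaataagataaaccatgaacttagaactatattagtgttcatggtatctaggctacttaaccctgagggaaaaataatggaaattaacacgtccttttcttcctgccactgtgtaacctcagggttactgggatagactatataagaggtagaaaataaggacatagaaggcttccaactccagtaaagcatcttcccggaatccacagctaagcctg
Prl2c5: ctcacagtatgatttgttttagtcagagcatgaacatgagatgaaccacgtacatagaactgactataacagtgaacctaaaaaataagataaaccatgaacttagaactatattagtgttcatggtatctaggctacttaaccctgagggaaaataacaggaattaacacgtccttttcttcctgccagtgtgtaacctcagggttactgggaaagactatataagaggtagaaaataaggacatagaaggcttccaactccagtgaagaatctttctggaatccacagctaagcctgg
Serpinb2: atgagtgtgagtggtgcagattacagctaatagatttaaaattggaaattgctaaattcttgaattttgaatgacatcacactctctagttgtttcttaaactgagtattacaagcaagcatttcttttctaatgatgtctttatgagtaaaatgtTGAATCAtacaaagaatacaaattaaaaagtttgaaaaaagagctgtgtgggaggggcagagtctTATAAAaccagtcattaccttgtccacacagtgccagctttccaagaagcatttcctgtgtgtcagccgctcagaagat
Spp1: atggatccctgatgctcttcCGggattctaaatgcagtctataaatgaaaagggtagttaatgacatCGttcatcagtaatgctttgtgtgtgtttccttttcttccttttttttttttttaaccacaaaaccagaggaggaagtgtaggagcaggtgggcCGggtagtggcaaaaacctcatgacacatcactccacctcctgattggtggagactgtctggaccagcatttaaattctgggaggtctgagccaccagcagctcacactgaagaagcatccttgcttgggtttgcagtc
Grem1: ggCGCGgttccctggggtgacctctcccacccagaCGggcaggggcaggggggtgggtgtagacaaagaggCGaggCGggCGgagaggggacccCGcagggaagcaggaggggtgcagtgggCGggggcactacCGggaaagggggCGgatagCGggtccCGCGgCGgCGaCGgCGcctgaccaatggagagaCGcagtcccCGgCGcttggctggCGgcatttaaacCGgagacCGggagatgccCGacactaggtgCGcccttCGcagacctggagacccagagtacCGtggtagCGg

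The Prl2c3 and Prl2c5 promoters were 96% identical over their aligned bases, with 287 identical positions, 12 mismatches and 2 gaps. In Prl2c3 the letters TGAATCA begin 209 bases before the start. Prl2c5 lacks this match through the substitution T46C, counted from 1 at the 5′ end of the sequences shown, Prl2c3 base first. TGANTCA, searched on both strands, stood in 3 of 13 member promoters (23.1%), those of Prl2c3, Serpinb2 and 1700012B09Rik, against 6.96% of 16387 promoters and 4.24% of the 7755 whose genes reached 5 CPM at day 0. All 3 matches read TGAATCA, with A in the middle. The forms with a middle G or C, TGAGTCA and TGACTCA, a search added after these matches were seen, were in 0 of 13 member promoters and in 4.52% of all promoters.

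The other motifs were searched in the same way and are set against all 16387 promoters. The E2F letters TTTCCCGC, TTTGGCGC, TTTCGCGC and TTTGCCGC were in 0 of 13 member promoters and in 2.95% of all. The cell cycle homology letters TTTGAA or TTTAAA were in 5 of 13 (38.5%) against 24.5%, and CCAAT, the NF-Y motif, was in 8 of 13 (61.5%) against 38.7%. GGAATG, the TEAD motif, was in 0 of 13 against 13.2%, and the CArG box in 0 of 13 against 1.54%. GGGCGG, the Sp1 motif, was in 4 of 13 (30.8%) against 48.4%, and the NF-kB motif in 2 of 13 (15.4%), Acsbg1 and Tm4sf1, against 4.8%. TATAAA was in 2 of 13 (15.4%) against 12.7%, beginning 29 bases before the start in Serpinb2 and 211 bases before it in Spp1. The E-box CANNTG, which overlaps the CAGCTG form bound by myogenic factors, was in 8 of 13 (61.5%) against 68.3%, and CAGCTG itself in 1 of 13 (7.69%), Tm4sf1, against 15.3%. Over the 7755 promoters of genes that reached 5 CPM at day 0, the share was 60.5% for CANNTG, so the members lie above one background and below the other, 69.4% for GGGCGG, 39% for CCAAT, 18.4% for TTTGAA or TTTAAA and 6.29% for TATAAA. With 13 promoters each gene weighs 7.69%, and these counts are descriptions of letters in a window.

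CpG content split the member promoters. Of 13, 6 held at most 4 CG dinucleotides (46.2%): Serpinb2 and Tm4sf1 with 1, Prl2c3, Prl2c5 and Acsbg1 with 2 and Spp1 with 3. Of the 7755 expressed genes, 3.95% did; the limit of 4 was chosen after the values were seen. Hhip with 30, Grem1 with 28, and Nipal1 and Slc16a11 with 20 each stood at the other end. The member median was 11, against 22 over expressed genes.

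At day 0 the 22 genes together took 0.972% of all reads in the Fkbp5 knockdown, 0.906% in the Fkbp4 knockdown and 1.11% in the control. At day 3 their share was 0.0533% in the Fkbp5 knockdown, 0.05% in the Fkbp4 knockdown and 0.0478% in the control, and at day 5 it was 0.0801%, 0.0618% and 0.0813% in the Fkbp5 knockdown, Fkbp4 knockdown and control. One gene carried most of it: at day 0 Spp1 alone was 0.622% of reads in the Fkbp5 knockdown, 0.587% in the Fkbp4 knockdown and 0.801% in the control. Without Spp1 the share at days 0, 3 and 5 was 0.35%, 0.0231% and 0.0196% in the Fkbp5 knockdown, 0.319%, 0.0213% and 0.0159% in the Fkbp4 knockdown, and 0.307%, 0.0198% and 0.0135% in the control. Among the 9680 genes with at least 5 CPM at day 0, a day 5 level at or under 10% of day 0 in all genotypes was met by 0.289%, a figure that includes these members and the 6 genes left out by name. A day 5 level at most 50% of day 0 in all genotypes was met by 8.2%.

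**Figure D1:**
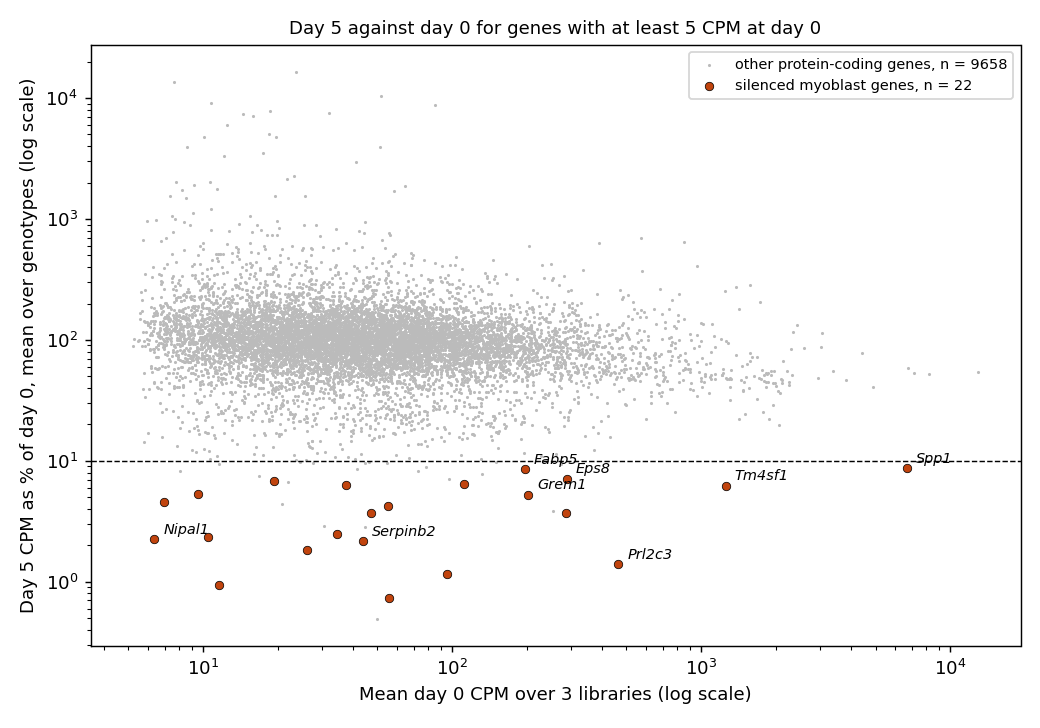
Mean day 0 CPM over the 3 libraries (horizontal, log scale) and day 5 CPM as a percentage of day 0, averaged over genotypes (vertical, log scale), for the 9680 genes with at least 5 CPM at day 0, values under 0.1% drawn at that level. The 22 members (red) lie under the dashed line at 10% because they were selected there, and Spp1 is the most abundant of them; the 6 genes left out by name are among the grey points.

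Per length of transcript, the levels at day 0 spanned a wide range, from a mean of 1.45 RPKM (reads scaled to exon length and library total) for Nipal1 to 4066 RPKM for Spp1. Prl2c3 had a mean of 341 RPKM, Tm4sf1 301, Prl2c2 87.0, Nefl 84.6, Fabp5 54.8, Grem1 48.7, 1700012B09Rik 45.8 and Eps8 23.3. The values of Prl2c3 and Prl2c2 depend on how reads that match both genes were counted. Among 21684 protein-coding genes ranked by RPKM, Spp1 was at 5, 239 and 87 on days 0, 3 and 5 in the Fkbp5 knockdown, at 3, 253 and 117 in the Fkbp4 knockdown, and at 3, 273 and 67 in the control. Tm4sf1 was at 151, 1883 and 1908 in the Fkbp5 knockdown, at 163, 2351 and 3109 in the Fkbp4 knockdown, and at 161, 2165 and 3159 in the control.

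**Figure D2:**
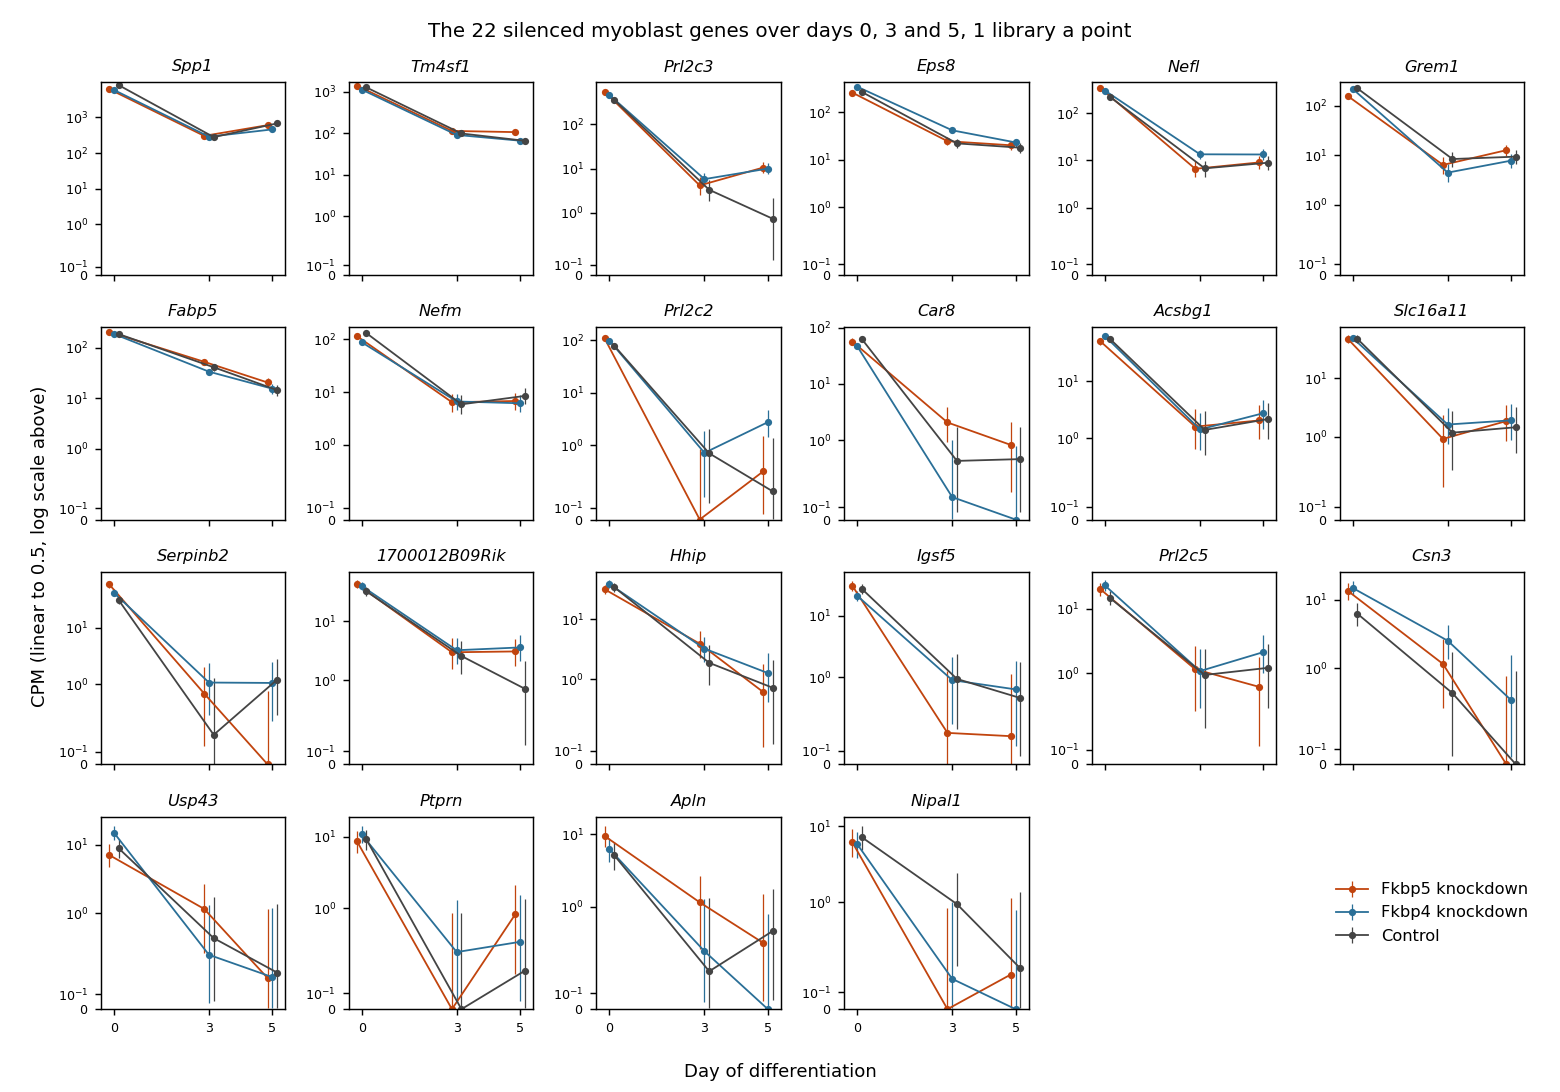
CPM of each member at days 0, 3 and 5 (horizontal), on an axis that is linear to 0.5 CPM and logarithmic above, with 1 library per point and bars for the exact 95% Poisson interval of the read count. Every member is highest at day 0 in all 3 genotypes, and at day 5 the control point of Prl2c3 lies below both knockdown points.

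Among the secreted factors, Spp1, which encodes osteopontin, a matrix glycoprotein that binds integrins and Cd44, was the most abundant member. It had 6218, 303 and 604 CPM at days 0, 3 and 5 in the Fkbp5 knockdown, 5872, 287 and 460 CPM in the Fkbp4 knockdown, and 8012, 280 and 678 CPM in the control. The day 5 level was above the day 3 level in every genotype, by a ratio of 2.0 in the Fkbp5 knockdown, 1.6 in the Fkbp4 knockdown and 2.42 in the control, and the exact 95% intervals of the counts did not overlap. Spp1 was the only member of the 22 with a day 5 level separated upward in this way in all 3 genotypes; among the other 9658 genes 187 had one (1.94%). Its receptors differed in their course: over the 3 genotypes, at day 5 Cd44 was at 74.3% to 117% of day 0, Itgav at 93.8% to 98.9%, Itgb1 at 120% to 130%, Itgb3 at 58.4% to 101% and Itgb5 at 142% to 225%. At day 3 Cd44 was at 178% of day 0 in the Fkbp5 knockdown, 170% in the Fkbp4 knockdown and 117% in the control. Spp1 (ENSMUSG00000029304, chr5:104435118-104441050 on GRCm38, plus strand) shares 18.8% of its exon bases with Gm42793 on the same strand, so part of the reads of either gene may be uncertain.

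The proliferins Prl2c2, Prl2c3 and Prl2c5, prolactin-family hormones known in mouse from growing fibroblasts and placenta, included the 2 members with the lowest day 3 levels relative to day 0. Prl2c3 (ENSMUSG00000056457, chr13:12790816-12800079, minus strand) had 559, 4.13 and 10.5 CPM at days 0, 3 and 5 in the Fkbp5 knockdown, 467, 5.75 and 9.96 CPM in the Fkbp4 knockdown, and 363, 3.29 and 0.726 CPM in the control. At day 5 both knockdown libraries lay above the control library, on 51 reads in the Fkbp5 knockdown and 47 in the Fkbp4 knockdown against 3 in the control. The exact 95% intervals of these day 5 levels were 7.81 to 13.8 CPM in the Fkbp5 knockdown, 7.32 to 13.2 CPM in the Fkbp4 knockdown and 0.150 to 2.12 CPM in the control, with 1 library each. Prl2c2 had 108, 0 and 0.411 CPM in the Fkbp5 knockdown, 98.1, 0.718 and 2.76 CPM in the Fkbp4 knockdown, and 78.7, 0.704 and 0.242 CPM in the control. Prl2c5 was rarer, with 20.1, 1.15 and 0.617 CPM in the Fkbp5 knockdown, 22.8, 1.08 and 2.12 CPM in the Fkbp4 knockdown, and 14.7, 0.939 and 1.21 CPM in the control.

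The split of reads among the proliferins is uncertain. Of the 31-letter words of their transcripts, 89.8% in Prl2c2, 67% in Prl2c3 and 46.8% in Prl2c5 also occur in other genes, mostly in each other. Summed over the 3 genes, where a read given to one or another of them counts the same, the level was 687, 5.28 and 11.5 CPM at days 0, 3 and 5 in the Fkbp5 knockdown, 588, 7.54 and 14.8 CPM in the Fkbp4 knockdown, and 457, 4.93 and 2.18 CPM in the control. Prl2c1 and an unnamed gene, which also share words with them, are outside this sum. Reads dropped for matching several genes, if any were, are not restored by it. The summed day 5 values rest on 56 reads in the Fkbp5 knockdown, 70 in the Fkbp4 knockdown and 9 in the control. The genes are neighbours on chromosome 13, with 196 kb between Prl2c3 and Prl2c2 and 177 kb between Prl2c2 and Prl2c5, and no other protein-coding gene in either gap. The related Prl2c1 was at or under 2.9 CPM in all libraries, and the prolactin-family genes Prl3c1 and Prl8a9 had no read. Igf2r, a receptor that proliferin binds, was at 245% to 413% of its day 0 level at day 5 over the 3 genotypes.

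Grem1, a secreted antagonist of bone morphogenetic proteins (BMPs), had 158, 6.43 and 12.8 CPM at days 0, 3 and 5 in the Fkbp5 knockdown, 221, 4.49 and 7.84 CPM in the Fkbp4 knockdown, and 226, 8.45 and 9.44 CPM in the control. All day 0 values were far above all later ones, and the day 5 values did not separate the genotypes. Other antagonists went the other way or were at low levels. Chrd was at 792% to 1020% of day 0 by day 5 over the 3 genotypes, and Nog did not exceed 5.39 CPM in any library. Of the ligands, Bmp4 was between 10.7 and 17.8 CPM at day 0, 3.23 and 7.04 CPM at day 3, and 5.55 and 9.68 CPM at day 5, Bmp2 did not exceed 0.206 CPM and Bmp7 had no read. Of the BMP target genes, Id1 was at 26.5% to 44.4% of day 0 by day 5, Id2 at 20.8% to 28.4% and Smad7 at 34.1% to 40%. Smad6, at or under 3.32 CPM in all libraries, was at 37.3% to 83.4%. These were lower but outside the 10% limit, while Id3, which met it, was left out by name.

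Serpinb2 encodes plasminogen activator inhibitor type 2. It had 58.5, 0.689 and 0 CPM at days 0, 3 and 5 in the Fkbp5 knockdown, 41.5, 1.08 and 1.06 CPM in the Fkbp4 knockdown, and 30.8, 0.235 and 1.21 CPM in the control. Later levels rest on 0 to 6 reads a library. Other parts of the plasminogen activator system differed in their course. Over the 3 genotypes, the urokinase receptor Plaur was at 7.78% to 13.6% of day 0 by day 5. Plau, the urokinase itself, was at 73.5% to 98.6%, and the tissue activator Plat at 150% to 269%. Serpinb2 shares 12.4% of its exon bases with Serpinb10 on the same strand.

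Apln and Csn3 were secreted-protein genes near the 5 CPM limit. Apln, the hormone apelin, had 9.41, 1.15 and 0.411 CPM in the Fkbp5 knockdown, 6.22, 0.359 and 0 CPM in the Fkbp4 knockdown, and 5.13, 0.235 and 0.484 CPM in the control. Its receptor Aplnr did not exceed 1.21 CPM. Csn3, kappa-casein of milk, had 13.5, 1.15 and 0 CPM in the Fkbp5 knockdown, 14.9, 2.51 and 0.424 CPM in the Fkbp4 knockdown, and 6.25, 0.469 and 0 CPM in the control. At day 0 both knockdown libraries were above the control library, on 53 reads in the Fkbp5 knockdown and 72 in the Fkbp4 knockdown against 28 in the control. The caseins Csn1s1 and Csn2 had no read in any library.

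Among the membrane and signalling proteins, Tm4sf1 (ENSMUSG00000027800, chr3:57285611-57301988, minus strand), a small membrane protein with 4 spans, was the second most abundant member by CPM. It had 1382, 113 and 105 CPM at days 0, 3 and 5 in the Fkbp5 knockdown, 1117, 90.2 and 65.5 CPM in the Fkbp4 knockdown, and 1255, 97.6 and 65.1 CPM in the control. The Fkbp5 knockdown library was the highest of the 3 on each day. Eps8, a substrate of receptor tyrosine kinases that caps actin filaments, had 256, 24.6 and 20.2 CPM in the Fkbp5 knockdown, 342, 41.5 and 23.1 CPM in the Fkbp4 knockdown, and 264, 22.1 and 17.9 CPM in the control. Here the Fkbp4 knockdown library was the highest on each day. Of its partners, Abi1 was at 85.3% to 101% of day 0 by day 5, Sos1 at 94.5% to 149% and Baiap2 at 43.4% to 54.4%.

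Hhip, a membrane protein that binds hedgehog ligands and limits their signal, had 31.3, 3.9 and 0.617 CPM in the Fkbp5 knockdown, 38.1, 3.23 and 1.27 CPM in the Fkbp4 knockdown, and 33.9, 1.88 and 0.726 CPM in the control. Its day 5 level was 0.158 times the day 3 level in the Fkbp5 knockdown, 0.393 times in the Fkbp4 knockdown and 0.387 times in the control. The ligands Shh, Dhh and Ihh were at or under 0.622 CPM in all libraries, the target Gli1 did not exceed 1.78 CPM, and the receptor Ptch1 was at 39.7% to 59.8% of day 0 by day 5. Igsf5, an adhesion molecule of the immunoglobulin family, had 30.3, 0.23 and 0.206 CPM in the Fkbp5 knockdown, 20.9, 0.898 and 0.636 CPM in the Fkbp4 knockdown, and 27, 0.939 and 0.484 CPM in the control. Of its exon bases, 31.2% also belong to an unnamed gene on the same strand. Ptprn, a phosphatase-like protein of secretory vesicles, had 8.65, 0 and 0.823 CPM in the Fkbp5 knockdown, 10.8, 0.359 and 0.424 CPM in the Fkbp4 knockdown, and 9.15, 0 and 0.242 CPM in the control.

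The neurofilament genes Nefl and Nefm encode intermediate filament subunits best known from axons. Nefl had 339, 6.66 and 9.05 CPM at days 0, 3 and 5 in the Fkbp5 knockdown, 298, 13.5 and 13.4 CPM in the Fkbp4 knockdown, and 222, 6.81 and 8.95 CPM in the control. Nefm had 115, 6.43 and 6.79 CPM in the Fkbp5 knockdown, 87.9, 6.65 and 6.15 CPM in the Fkbp4 knockdown, and 131, 5.87 and 8.47 CPM in the control. Per length, Nefl was above Nefm at day 0 in each genotype, at 100 against 19.8 RPKM in the Fkbp5 knockdown, 88.1 against 15.2 RPKM in the Fkbp4 knockdown, and 65.5 against 22.6 RPKM in the control. The genes lie on opposite strands of chromosome 14 and share 1108 exon bases in the annotation, 32.8% of Nefl and 19.2% of Nefm, and the sources used here do not say whether counting used strand. The remaining subunits did not share this expression: Nefh did not exceed 1.8 CPM and Ina did not exceed 0.509 CPM. Filament genes of muscle cells differed from both: over the 3 genotypes, at day 5 Des was at 383% to 451% of day 0, Nes at 135% to 202%, and Vim at 56.5% to 63.1%.

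Among the lipid and transport genes, Fabp5 (ENSMUSG00000027533, chr3:10012548-10016607, plus strand), a cytosolic carrier of fatty acids, kept the largest share of its day 0 level at day 3. It had 208, 53 and 20.6 CPM at days 0, 3 and 5 in the Fkbp5 knockdown, 190, 33.8 and 15.5 CPM in the Fkbp4 knockdown, and 189, 41.3 and 14.5 CPM in the control. Of its 31-letter words, 9.21% also occur in other genes. The related muscle carrier Fabp3 had 1.02, 14.2 and 30 CPM in the Fkbp5 knockdown, 3.11, 12.2 and 24.2 CPM in the Fkbp4 knockdown, and 3.12, 14.8 and 49.1 CPM in the control, the opposite course. Acsbg1, an acyl-CoA synthetase, had 49.6, 1.61 and 2.06 CPM in the Fkbp5 knockdown, 60.7, 1.44 and 2.76 CPM in the Fkbp4 knockdown, and 54.9, 1.41 and 2.18 CPM in the control. Its relatives differed from it and from each other: by day 5 Acsl3 was at 276% to 423% of day 0, and Acsl5 at 36% to 41.1%.

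Slc16a11, of the monocarboxylate transporter family, was the most even member across genotypes at day 0. It had 46.5, 0.918 and 1.85 CPM in the Fkbp5 knockdown, 48.3, 1.62 and 1.91 CPM in the Fkbp4 knockdown, and 46.6, 1.17 and 1.45 CPM in the control. The family member Slc16a13 was at 12.9% to 16.1% of day 0 by day 5, close to the limit, and the lactate carrier Slc16a1 was at 55.1% to 65.8%. Nipal1, of a family of magnesium transporters, had 6.1, 0 and 0.206 CPM in the Fkbp5 knockdown, 5.8, 0.18 and 0 CPM in the Fkbp4 knockdown, and 7.14, 0.939 and 0.242 CPM in the control. Car8, a carbonic anhydrase relative without the enzyme activity, had 56.7, 2.07 and 0.823 CPM in the Fkbp5 knockdown, 47.1, 0.18 and 0 CPM in the Fkbp4 knockdown, and 62.7, 0.469 and 0.484 CPM in the control. Usp43, a ubiquitin protease, had 7.12, 1.15 and 0.206 CPM in the Fkbp5 knockdown, 15.1, 0.359 and 0.212 CPM in the Fkbp4 knockdown, and 8.92, 0.469 and 0.242 CPM in the control. The day 5 values of Usp43 are 1 read a library, and 12.8% of its exon bases overlap 9130017K11Rik on the other strand. 1700012B09Rik, for which no role is given here, had 42, 2.98 and 3.08 CPM in the Fkbp5 knockdown, 39, 3.23 and 3.6 CPM in the Fkbp4 knockdown, and 31.7, 2.58 and 0.726 CPM in the control.

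Most of the decline had taken place by day 3, in libraries that the selection did not use, although the day 0 reference is common to both. The median member was at 4.47% of its day 0 CPM at day 3 in the Fkbp5 knockdown, 4.4% in the Fkbp4 knockdown and 4.11% in the control. Over all 9680 genes the medians were 104% in the Fkbp5 knockdown, 94.2% in the Fkbp4 knockdown and 96.3% in the control. By day 3, 15 of the 22 were already at or under 10% of day 0 in all 3 genotypes, a level reached by 0.227% of all 9680 genes. The 7 other genes at that level were Cd53, Cxcl5, Fgf7, Hmga2, Il1rn, Itgb7 and Ngfr, of which 5, all but Cd53 and Fgf7, had been left out by name. Among these 5, Il1rn did not meet the day 5 limit (10.6% in its highest genotype), so it is not 1 of the 6 named at the start. Fabp5 apart, all members were at or under 25% of day 0 by day 3 in all genotypes. At day 5 the member medians were 3.67% in the Fkbp5 knockdown, 3.74% in the Fkbp4 knockdown and 3.66% in the control.

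The lowest mean day 3 levels were those of Prl2c2 (0.542% of day 0), Prl2c3 (0.958%), Ptprn (1.11%), Serpinb2 (1.51%) and Car8 (1.59%). The highest was that of Fabp5, at 25.5%, 17.8% and 21.9% in the Fkbp5 knockdown, Fkbp4 knockdown and control, the 1 member above 10% in every genotype. Csn3 (mean 11%), Eps8 (mean 10%) and Hhip (8.83%) came next. For Csn3 the 3 libraries ranged from 7.52% to 16.8% on 2 to 14 reads, so its place beside Eps8 is not separated from counting error. From day 3 to day 5 the members did not move together: 5 were higher at day 5 in all 3 genotypes (Spp1, Grem1, Acsbg1, Slc16a11 and Ptprn) and 7 were lower in all 3 (Tm4sf1, Eps8, Fabp5, Hhip, Igsf5, Csn3 and Usp43). Of the other 9658 genes, 16.5% were higher and 28% lower in all 3, so these counts are near the background. Some of these directions rest on few reads. In the Fkbp4 knockdown Ptprn had 2 reads and Slc16a11 had 9 on both days, and Usp43 had 2 reads at day 3 and 1 at day 5. The count intervals were apart in all genotypes for Spp1, upward, and for Fabp5, downward, against 1.94% of the other genes upward and 4.05% downward.

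**Figure D3:**
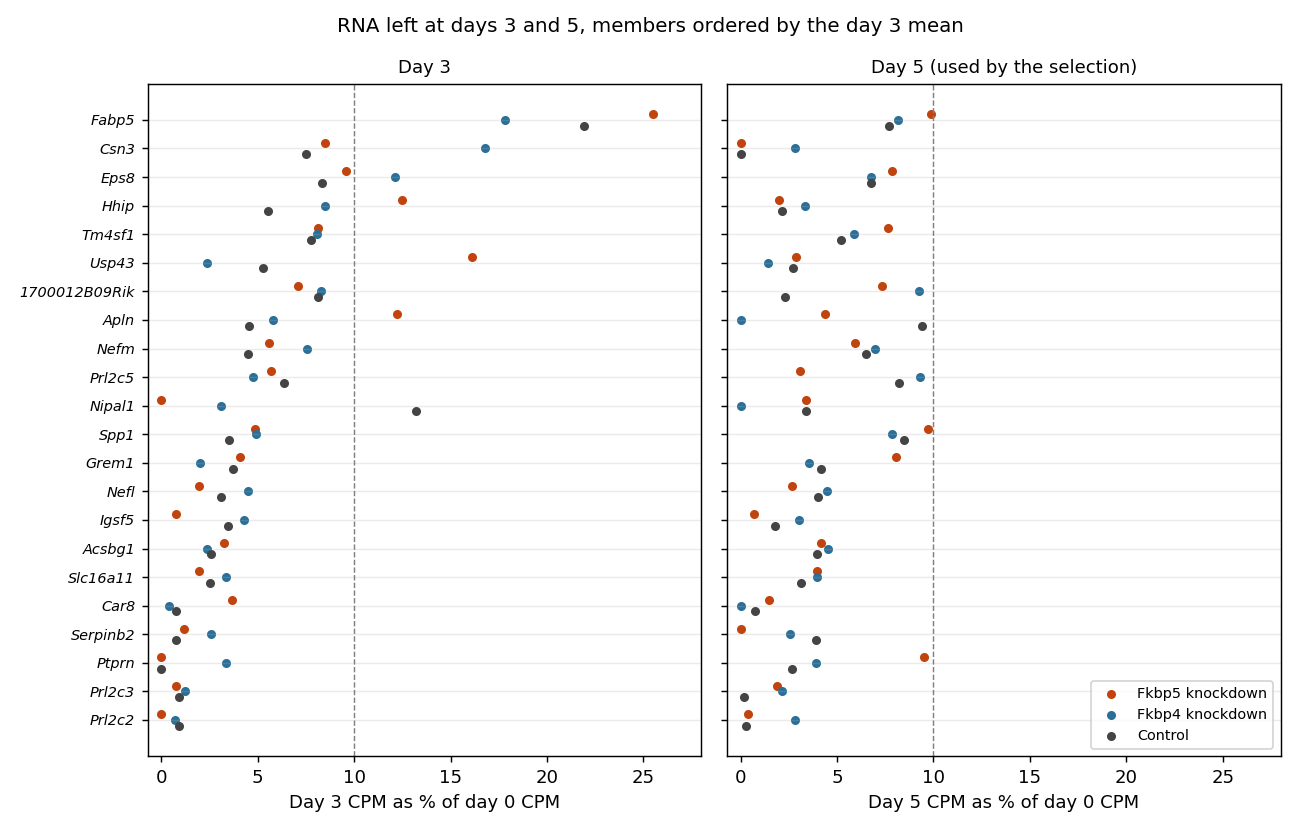
Day 3 CPM (left) and day 5 CPM (right) as a percentage of day 0 for each member and genotype, with members ordered by their mean at day 3 and a dashed line at 10%. Fabp5 lies between 17.8% and 25.5% at day 3, and 15 of 22 members lie at or under the line in all 3 genotypes; the right panel was used by the selection.

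The members close to the day 5 limit were Fabp5 at 9.87%, Spp1 at 9.72%, Ptprn at 9.51%, Apln at 9.43% and Prl2c5 at 9.29% of day 0 in their highest genotype. Just outside it were Sema7a and Trip13 at 10.5%, Il1rn and Flt1 at 10.6% and Tmprss11f at 11.7%. Near the day 0 limit, Apln at 5.13, Nipal1 at 5.8 and Csn3 at 6.25 CPM in their lowest genotype were inside, and Selp at 4.07, Prr9 at 3.81 and Gda at 3.31 CPM were outside. With CPM taken over reads outside mitochondrial genes, an alternative chosen after seeing the data, 19 of the 22 met the limits, without Fabp5, Spp1 and Ptprn. With TMM-scaled CPM 20 did, without Fabp5 and Spp1.

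Lists of other genes tied to growth and signalling were set beside the members; they hold none of the genes left out by name. Counts are of listed genes with at least 5 CPM at day 0 whose day 5 level was at most 50% of day 0 in all genotypes, beside 8.2% of all genes. They were 89 of 91 mitosis genes, 69 of 78 DNA replication and repair genes, 14 of 26 nucleotide synthesis genes, 14 of 18 histone genes and 10 of 25 regulators of G1 and S phase. They were 10 of 29 MAP kinase feedback and immediate early genes, 6 of 23 chemokine and cytokine genes and 9 of 41 growth factor and receptor genes. They were 3 of 26 extracellular protease genes, 5 of 23 YAP and TGF-beta targets, 5 of 37 progenitor factors, 4 of 44 adhesion and cytoskeleton genes, and 7 of 24 solute carriers. The 10% limit was met by 1 gene of these 13 lists, Serpinb2, listed among proteases and their inhibitors. The other 21 members are in none of the lists. Only the members and the 6 genes left out by name meet that limit, and the lists hold none of those 6. This count therefore follows from the selection and from how the lists were written, and is no result about these groups of genes. Median day 5 levels were 21.9% of day 0 for the mitosis list and 22.6% for the replication list. Of 24 muscle differentiation genes, 23 were at least 2 times their day 0 level in all genotypes at day 5.

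The knockdowns were compared with each other and with the control over all 3 days by edgeR's quasi-likelihood test on counts, with day as a second term, over 12844 genes. These comparisons share libraries, and for most members the reads that carry the test are those of day 0. The selection did not use the difference between genotypes directly, but it required both limits in each genotype. Genes that met them in only some genotypes were thus left out beforehand, and the member counts below are not free of this. The rule gave 33 genes without the Fkbp5 knockdown, 34 without the Fkbp4 knockdown and 25 without the control, in place of 22. In the Fkbp5 knockdown against the control, 0 of 22 members passed an edgeR adjusted p under 0.05, where 2.09% of all genes did. At an unadjusted edgeR p under 0.05 there were 4 members, Csn3, Fabp5, Prl2c3 and Tm4sf1, beside 2027 of the 12844 genes, a like share, and DESeq2 and limma voom also called 0. The log2 fold change was positive for 17 and negative for 5, with a median of 0.18, against 0.00 over all genes. Csn3 (1.12, SE 0.44, edgeR adjusted p = 0.24), Apln (0.99, SE 0.48, 0.351) and Prl2c3 (0.93, SE 0.33, 0.197) had the largest values, and none of them passed.

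In the Fkbp4 knockdown against the control, 0 of 22 members passed, where 1.09% of all genes did. At an unadjusted edgeR p under 0.05 there were 6 members, Csn3, Eps8, Nefl, Nefm, Prl2c3 and Spp1, beside 2103 of all genes, and DESeq2 and limma voom again called 0. There were 14 positive and 8 negative log2 fold changes, with a median of 0.21, against 0.02 over all genes. The closest to the threshold were Eps8 (0.51, SE 0.13, edgeR adjusted p = 0.101) and Csn3 (1.55, SE 0.42, edgeR adjusted p = 0.119). The calls against control depend on the filter on low counts. Without it, where edgeR called 690 genes in place of 140, Csn3 (1.54, adjusted p = 0.00402), Eps8 (0.51, adjusted p = 0.00521), Nefl (0.59, adjusted p = 0.00543) and Prl2c3 (0.74, adjusted p = 0.000489) passed in the Fkbp4 comparison. In the Fkbp5 comparison Prl2c3 passed (0.90, edgeR adjusted p = 2.45e-06), among 866 genes called in place of 268. Nefl and Nefm had opposite signs, 0.58 (SE 0.20) and -0.43 (SE 0.15), with edgeR adjusted p = 0.197 and 0.202.

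Between the knockdowns, 2 of 22 members passed, where 12.8% of all genes did, so the share of members is not above the background. Set against the Fkbp4 knockdown, Tm4sf1 was higher in the Fkbp5 knockdown by a log2 fold change of 0.51 (SE 0.13, edgeR adjusted p = 0.0286), with the higher value on all 3 days. Fabp5 was higher by 0.44 (SE 0.12, edgeR adjusted p = 0.0328), also on all 3 days. Both calls were lost without any 1 of the Fkbp4 knockdown libraries, where the log2 fold change was 0.46 to 0.54 for Tm4sf1 (edgeR adjusted p between 0.0714 and 0.132) and 0.33 to 0.53 for Fabp5 (edgeR adjusted p between 0.0516 and 0.148). Without the Fkbp5 knockdown day 5 library, which has the high mitochondrial share, they were 0.34 (edgeR adjusted p = 0.139) for Tm4sf1 and 0.39 (edgeR adjusted p = 0.127) for Fabp5. The Fabp5 call was also lost without the Fkbp5 knockdown day 3 library (0.38, edgeR adjusted p = 0.0658), without the control day 0 library (0.44, edgeR adjusted p = 0.058) and with DESeq2 (0.44, adjusted p = 0.0579).

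**Figure D4:**
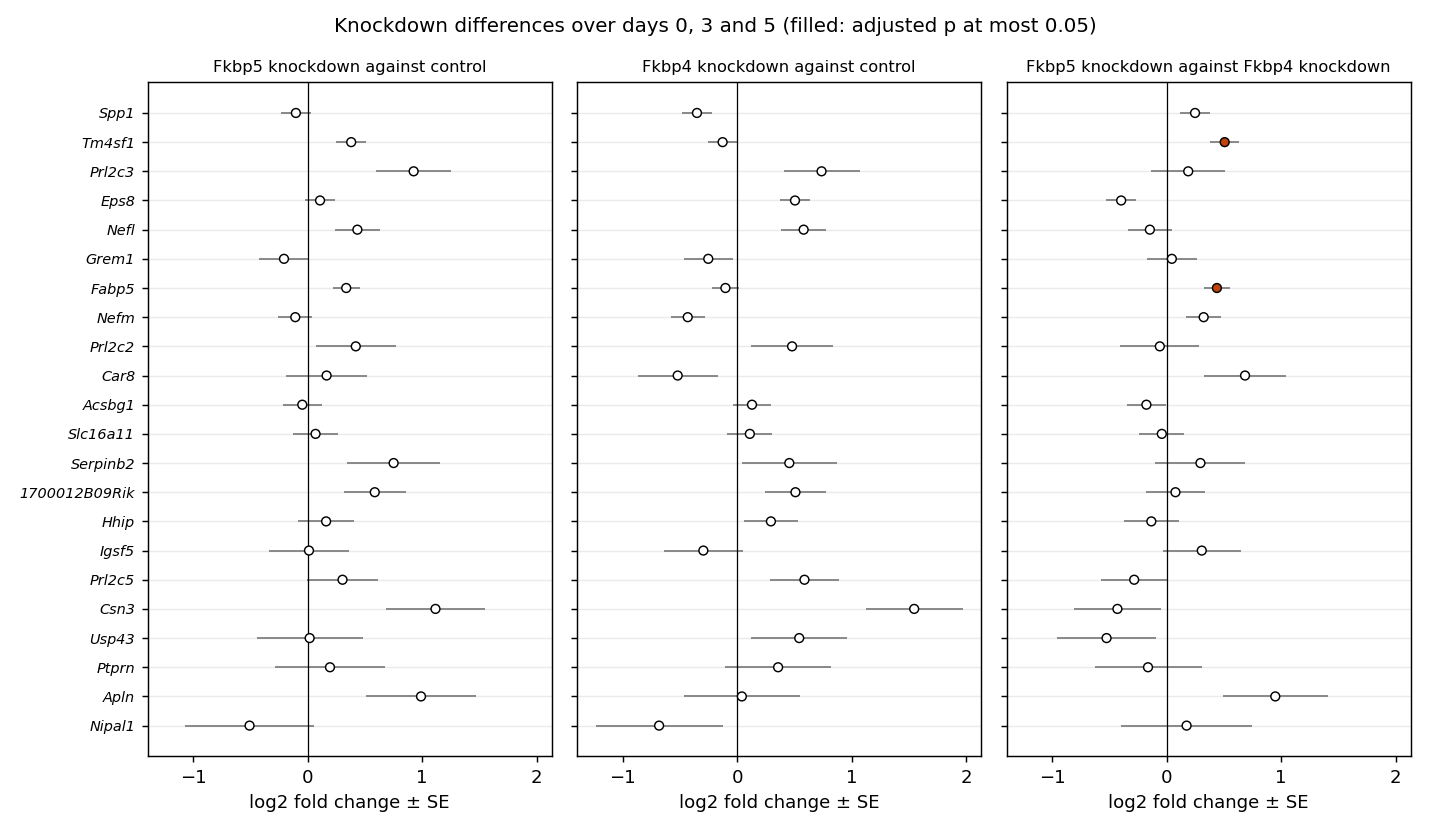
Log2 fold change with its standard error (horizontal) for each member (rows, by day 0 CPM), for the Fkbp5 knockdown and the Fkbp4 knockdown against the control and for the Fkbp5 against the Fkbp4 knockdown. Filled points, Tm4sf1 and Fabp5 in the third panel, have an edgeR adjusted p under 0.05, and the widest bars belong to the members with the fewest reads.

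Whether a knockdown effect differed between day 0 and the later days was tested as an interaction over 13372 genes. The selection capped the day 5 part of this measure, since each member had to be at or under 10% in each genotype. For the Fkbp5 knockdown 0 of 22 members passed, where 0.0374% of all genes did, with 1 member, Car8 (1.63, SE 0.66), and 604 of all genes at an unadjusted edgeR p under 0.05. For the Fkbp4 knockdown the result was also 0 of 22, where 0.0374% of all genes passed, with 1 member, Prl2c3 (1.60, SE 0.68), and 396 of all genes at an unadjusted edgeR p under 0.05. DESeq2 called 0 members in both, and without the filter edgeR called 1, Prl2c3 for the Fkbp4 knockdown (1.57, adjusted p = 0.0127). The standard errors of the members in these interactions ran from 0.22 to 1.45 in the Fkbp5 knockdown and from 0.23 to 1.43 in the Fkbp4 knockdown, so that for the rarest members differences of several fold were not detectable at this depth.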

How the data were processed

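Polyadenylated RNA was sequenced in 9 libraries. The files the authors deposited hold whole-number read counts for Ensembl genes, not normalised. Per the submitters' processing notes, CASAVA 1.8, HISAT2 2.0.2, Subread, featureCounts 1.4.6 and mm10 were used; annotation release, strand setting and treatment of multimapping reads are not given in the sources used here.

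Identifiers were matched to GENCODE mouse release 21 on GRCm38 (47309 of 47728), and the 419 unmatched held at most 0.0188% of a library's reads. CPM used library totals, RPKM the union of annotated exons, and exact 95% Poisson intervals cover counting error only, since PCR duplicates were not separated. Read sharing was described by 31-letter words.

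Counts were tested with edgeR 4.0.16 (filterByExpr, TMM factors 0.942 to 1.037, glmQLFit) in R 4.3.3, over all 9 libraries, with genotype and day as additive terms (4 residual degrees of freedom) or genotype by late day as an interaction (2). Tests were two-sided, with Benjamini-Hochberg adjustment over all genes tested; standard errors were calculated back from the F statistic. Alternatives were DESeq2 1.42.0, limma 3.58.1, RLE factors, no filter, protein-coding genes, and libraries or days left out.

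The members, role lists and related genes were chosen with earlier results of these data known. The rule for named genes took members by day 0 RPKM, role, extreme day 3 level, calls and nearness to the limits; the text names all 22. Related genes were picked as ligands, receptors, partners or family of a member, and the check genes were Fkbp4, Fkbp5, Myod1, Myog, Myh3 and Ckm.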

Additional observations from a re-analysis of the deposited data

How the results depend on the processing

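The number of genes called moved by over 1.5 times in several settings. For the Fkbp5 knockdown against control (268 called) it was 866 without the filter on low counts, 413 with protein-coding genes, and 128, 41 and 36 without day 0, 3 and 5; for the Fkbp4 knockdown against control (140) it was 690, 240, and 86, 4 and 12, and 224 with DESeq2. Between the knockdowns (1650) it was 1094 with DESeq2, 806 without day 0 and 250 without day 5. Leaving out each library gave 40 to 296, 4 to 259 and 487 to 2106 genes in these comparisons.

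Members called were 1 (Fkbp5 knockdown) and 4 (Fkbp4 knockdown) against control without the filter. Between the knockdowns 1 (Tm4sf1) was called with DESeq2, 0 without day 0 (10 members tested), day 3 or day 5, and 0 to 3 with a library left out, the third, Car8, without the Fkbp5 knockdown day 0 library. Leaving out a library gave 0 members in both comparisons with control. The interactions called 107 (Fkbp5) and 95 (Fkbp4) genes without the filter, including 1 member for Fkbp4, and 13 genes for Fkbp4 with DESeq2.

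The rule found 12 genes at a limit of 5% of day 0 and 34 without the Fkbp4 knockdown. Among the 16 members of at least 20 CPM, the median day 3 level was 3.86% in the Fkbp5 knockdown and 3.49% in the control. Within 100 bases of the start, the AP-1, Sp1, TATA box and NF-kB motifs were each in 1 of 13 member promoters, the cell cycle homology motif in 4, the NF-Y motif in 5 and the E-box in 6. The causes were not tested. A reversal of sign could be seen only in the log2 fold changes of Tm4sf1 and Fabp5 between the knockdowns. Both stayed positive in every setting. The other results compared across settings are counts or medians, which have no sign to reverse. No paired analysis was possible because each group has 1 library; day, the shared label, was already a term of each model.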

Other observations

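Outside the protein-coding genes, 1 gene met the same limits, the long noncoding RNA Gm19589. It had 9.16, 0.23 and 0.206 CPM at days 0, 3 and 5 in the Fkbp5 knockdown, 9.95, 0.359 and 0.848 CPM in the Fkbp4 knockdown, and 12.5, 0.469 and 0.242 CPM in the control. Tm4sf4, a relative of the member Tm4sf1 that was under the day 0 limit, had 4.07, 0.23 and 0 CPM in the Fkbp5 knockdown, 3.32, 0.718 and 0.212 CPM in the Fkbp4 knockdown, and 2.9, 0 and 0 CPM in the control.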
